A study of Saccharomyces cerevisiae with 36 samples.

Results

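Messenger RNA was measured in a budding yeast strain labelled as lacking both general stress factors, MSN2 and MSN4, after exposure to the proline analogue azetidine-2-carboxylic acid (AzC). The comparison used all 6 libraries that carry the msn2/4∆ name and were either given AzC (3 libraries) or left untreated (3 libraries), out of 36 libraries in the series. Treated cells had 10 mM AzC for 1 h at 25 °C in rich medium (YPD), and untreated cells stayed at 25 °C. All strains used here are mating type a Saccharomyces cerevisiae with the alleles his3∆1, leu2∆0, ura3∆0 and met15∆0, and the mutant is further labelled msn2::hphMX4 msn4::natMX4. Other groups entered for comparison, again with 3 libraries each. These were the wild type (WT), untreated and after AzC, the same mutant after heat shock (37 °C for 15 min), and the HSF1+ strain, untreated and after AzC. HSF1+ is labelled LYS2 and hsf1∆ and carries a cassette with HSF1, kanMX and the chaperone genes YDJ1, HSC82 and SSA2 under the ADH1, TEF1 and TDH3 promoters. Per the labels each condition has 3 replicates. They do not say whether the replicates were separate cultures or how many isolates of a strain were used. P-values therefore measure the spread between these libraries.

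AzC is taken up by amino acid permeases and charged onto proline tRNA, so that proteins made in its presence carry it and misfold. In yeast, misfolded proteins call on heat shock factor Hsf1, which binds heat shock elements and drives chaperone genes, and on Rpn4, which drives proteasome genes. Msn2 and Msn4 are a pair of zinc finger factors that bind the stress response element (STRE) and drive a broad set of genes for stored carbohydrates, antioxidants and metabolism when cells meet heat, salt, oxidants or starvation. Growth genes, chiefly those for ribosomes, fall in the same environmental stress response.

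The deleted genes were read first, since they check the labels. MSN2 (YMR037C) had 13, 22 and 13 reads in the untreated mutant libraries and 10, 26 and 10 after AzC. WT libraries held at least 1821 reads each. In CPM, which are read counts scaled to library size, MSN2 was at 0.99, 2.09 and 1.14 in the untreated mutant and at 136.03, 130.6 and 130.7 in untreated WT, a log2 difference of -6.58 ± 0.18 (± standard error, adjusted p = 5.77e-21). The groups lay far apart, with a few MSN2 reads left in every mutant library.

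MSN4 (YKL062W) went against its label. It had 665, 522 and 664 reads in the untreated mutant libraries, or 50.6, 49.6 and 58.4 CPM, and 32.8, 35.5 and 47 CPM in untreated WT. All 3 mutant libraries lay above the WT libraries (log2 difference 0.45 ± 0.11, adjusted p = 0.0343, and between 0.0611 and 0.254 without any one of 5 of the 6 libraries). After AzC, MSN4 fell to 38.2, 32.6 and 41.3 CPM in the mutant (log2 change -0.50 ± 0.11, adjusted p = 0.000301) and rose to 63.9, 65.2 and 77.3 CPM in WT (0.83 ± 0.11, adjusted p = 1.66e-07). The treated groups did not overlap, and the responses differed by -1.34 ± 0.16 (adjusted p = 1.13e-05). The count table does not say where in the gene a read lies. Every direction given below therefore belongs to a strain labelled msn2/4∆, whose libraries show the loss of MSN2 reads and not of MSN4 reads.

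Other labelled alleles gave these readings. LEU2, URA3 and MET17 had no reads in any library of the 5 mutant and WT groups, while HIS3, whose label is his3∆1, was at 84, 80.4 and 77.9 CPM in the untreated mutant. Of the mating type markers, 5 a genes summed to 2119 to 2189 CPM in the untreated mutant and 1949 to 2015 CPM after AzC, and 3 alpha genes to 5.61 to 7.30 and 9.72 to 10.5 CPM, mostly from STE3. The 6 libraries held 11572316 to 14501650 reads each, within a series range of 8159203 to 99558095. No pair of replicates was identical or agreed within counting noise.

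AzC changed a large part of the transcriptome of the strain labelled msn2/4∆. Of 6109 genes tested, 2197 (36%) were higher and 1893 (31%) lower at an adjusted p below 0.05. With a change of at least 2-fold, 655 genes (10.7%) were higher and 749 (12.3%) lower. All 3 treated libraries lay above all 3 untreated libraries for 2399 genes (39.3%) and below them for 2036 (33.3%). The median log2 change of all genes tested was 0.05. Scaled by total count alone, that median was 0.25 and the 2-fold calls were 945 higher and 646 lower, so small changes in either direction rest on the scaling. In bulk RNA, fewer cells with a transcript and less of it per cell cannot be told apart. Below, members of a gene list are counted as risen or fallen at the adjusted p alone, to be read against 36% and 31%. For every gene below whose library values are given, the treated and untreated mutant libraries did not overlap, except HRP1. Many of these genes were chosen for large changes without overlap or for small p-values, so this follows in part from the choice. Values given together are those of libraries 1, 2 and 3 of a group.

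Promoter sequences are shown for genes on which the results turn. HSP42 is the gene that rose most, RPN4 the factor that drives proteasome genes, and RPT2 and PRE3 are proteasome genes, while TSL1, RTC3, PGM2, GSY2 and STF2 are genes that AzC raised less in the mutant than in WT. They are from RefSeq, build R64, read 5′ to 3′ on the strand of the gene. Capitals mark matches on either strand to the STRE (AGGGG, or CCCCT on the other strand), to a heat shock element made of 3 alternating GAA and TTC units with gaps of 2 bases, or to the proteasome-associated control element (PACE, GGTGGCAAA). Matches to different motifs do not overlap in the sequences printed. HSP42 is the 250 bases before its start codon, chrIV:806371-806620 on the plus strand, and the others are the stretch around their matches.
HSP42: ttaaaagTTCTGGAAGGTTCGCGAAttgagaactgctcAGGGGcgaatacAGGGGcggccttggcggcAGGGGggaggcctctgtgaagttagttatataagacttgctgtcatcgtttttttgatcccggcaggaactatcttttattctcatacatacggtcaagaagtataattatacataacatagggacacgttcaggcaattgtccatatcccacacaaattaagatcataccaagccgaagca
RPN4: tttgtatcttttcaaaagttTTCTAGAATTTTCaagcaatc
RPT2: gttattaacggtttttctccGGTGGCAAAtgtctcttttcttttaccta
PRE3: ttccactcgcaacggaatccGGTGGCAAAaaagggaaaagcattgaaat
TSL1: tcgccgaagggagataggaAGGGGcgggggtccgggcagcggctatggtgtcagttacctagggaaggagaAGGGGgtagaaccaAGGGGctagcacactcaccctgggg
RTC3: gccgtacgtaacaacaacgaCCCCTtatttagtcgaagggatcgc
PGM2: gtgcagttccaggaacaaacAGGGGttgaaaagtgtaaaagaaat
GSY2: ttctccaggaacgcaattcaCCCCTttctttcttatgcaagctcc
STF2: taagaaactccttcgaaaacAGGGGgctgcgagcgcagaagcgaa
The stretches are chrIV:416709-416749 on the minus strand for RPN4, chrIV:437896-437944 on the plus strand for RPT2, chrX:435025-435073 on the plus strand for PRE3 and chrXIII:70374-70483 on the plus strand for TSL1. For RTC3 it is chrVIII:280600-280644 on the plus strand, for PGM2 chrXIII:477798-477842 on the minus strand, for GSY2 chrXII:660500-660544 on the plus strand and for STF2 chrVII:508529-508573 on the minus strand. HSP42 holds a run of 4 heat shock units and 3 STREs, TSL1 holds 3 STREs, and the proteasome genes hold 1 PACE each. RPN4 holds 1 heat shock element, which starts 21 bases before its start codon. No such element lay in the 250 bases before the start codons of SSA4, HSP104, BTN2, SSA1 and HSP82. Imperfect elements, elements with other gaps and sequence further upstream were not searched.

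Cytosolic chaperones rose most. All 21 genes of the Hsf1-target list rose, with a median log2 change of 3.16 and a range from 1.59 to 7.39. HSP42, a small heat shock protein that gathers misfolded proteins into aggregates, went from 23.8, 24.3 and 29.1 CPM to 4328, 4636 and 3984 CPM (log2 change 7.39 ± 0.27, adjusted p = 1.32e-18). SSA4, the stress-induced cytosolic Hsp70, went from 49.3, 59.3 and 59.5 CPM to 9278, 9226 and 8498 CPM (7.33 ± 0.23, adjusted p = 6.73e-20). HSP104, the disaggregase, went from 261, 266 and 279 CPM to 10044, 10404 and 9336 CPM (5.21 ± 0.20, adjusted p = 3.11e-18). In each of these genes the treated libraries stood together, far above the untreated ones.

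The aggregate sorting factors and the Hsp70 and Hsp90 partners moved the same way. BTN2, which directs misfolded proteins to deposit sites, went from 81.1, 60 and 74.4 CPM to 3887, 3361 and 3260 CPM (log2 change 5.61 ± 0.28). Its relative CUR1 went from 43.5, 34.4 and 44.3 CPM to 496, 493 and 427 CPM (3.53). CPR6, an Hsp90 co-chaperone, went from 366, 336 and 335 CPM to 3214, 3165 and 2986 CPM (3.18 ± 0.09, adjusted p = 2.05e-20). SIS1, the J-protein that hands clients to Hsp70, went from 429, 428 and 452 CPM to 2741, 2618 and 2634 CPM (2.61). None of these groups overlapped. The other Hsp70 and Hsp90 genes differed in how far they rose, at log2 changes of 4.14 for SSA1, 1.72 for SSA2, 3.06 for SSA3 and 4.22 for HSP82. SSA1 and SSA2, SSA3 and SSA4, and HSP82 and HSC82 are closely similar pairs, and the assignment of shared reads is not known here. HSF1 itself rose from 99.1, 95 and 98.3 CPM to 188, 182 and 166 CPM (0.87 ± 0.13, adjusted p = 1.59e-06).

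**Figure D1:**
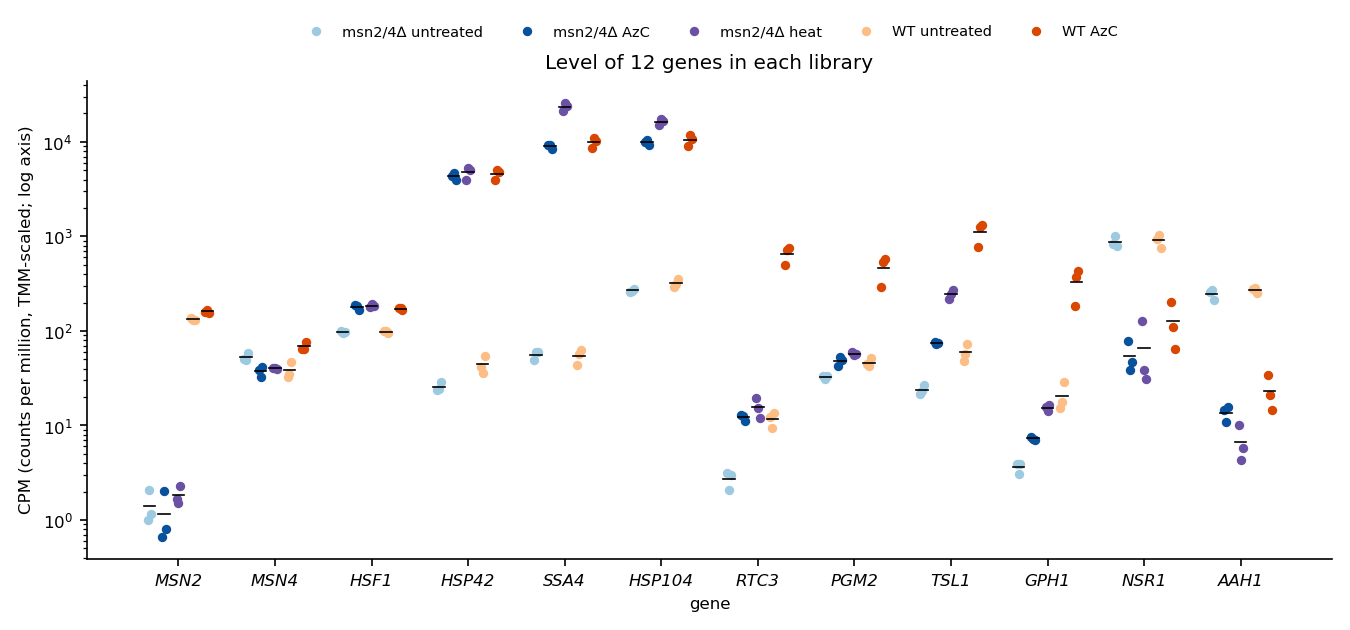
CPM of 12 genes in each library on a log axis, for the mutant untreated, after AzC and after heat shock and for WT untreated and after AzC, where each dot is 1 library and each line the mean of 3. HSP42, SSA4 and HSP104 rose in both strains, RTC3, PGM2, TSL1 and GPH1 rose further in WT, NSR1 and AAH1 fell in both, and MSN4 moved in opposite directions.

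Mitochondrial chaperones rose too, with exceptions. Of 8 matrix chaperone genes, 6 rose and 2 fell (median 1.66). HSP78, the mitochondrial disaggregase, went from 63.8, 55.8 and 66.2 CPM to 1645, 1704 and 1602 CPM (log2 change 4.74 ± 0.18). MDJ1, the J-protein of the matrix, went from 109.4, 125.5 and 142 CPM to 995, 1045 and 951 CPM (2.99). HSP60 rose by 1.87 and SSC1, the matrix Hsp70, by 1.70 on the log2 scale. Those that fell were MGE1, the nucleotide exchange factor, at -0.24 and MCX1 at -0.53. Under total-count scaling the fall of MGE1 did not pass, which left 6 risen and 1 fallen.

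The chaperones that fold new chains did not share that pattern. In a list of 15 genes for the CCT chaperonin and prefoldin, which together fold actin and tubulin, 8 rose and 5 fell (median 0.18). All 8 CCT subunits rose (7 under RLE size factors, without CCT7), by 0.18 for CCT7 to 0.60 for TCP1 on the log2 scale. TCP1 went from 349, 368 and 342 CPM to 548, 532 and 525 CPM. Of the 6 prefoldin subunits 4 fell, most of all PAC10, from 80.4, 81 and 80.4 CPM to 41.4, 42.1 and 38.1 CPM (-0.99). The ribosome-bound chaperones fell, 6 of 7 members with none risen and a median of -1.23. SSB1, the Hsp70 that binds nascent chains, went from 4195, 3986 and 3705 CPM to 748, 512 and 691 CPM (-2.61 ± 0.33), and its partner in the ribosome-associated complex SSZ1 fell by 1.33 on the log2 scale. Scaled by total count alone, BTT1 also rose in that list.

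Protein degradation genes rose as a body. All 33 proteasome subunit genes rose, within the narrow range of 0.74 to 1.30 and at a median of 1.07. RPT3, a base ATPase, went from 304, 284 and 308 CPM to 708, 702 and 681 CPM (log2 change 1.22 ± 0.05, adjusted p = 6.97e-17). The catalytic subunit gene PRE3 went from 176, 179 and 194 CPM to 419, 452 and 448 CPM (1.26). RPN4, the factor that drives them, went from 166, 161 and 156 CPM to 493, 454 and 464 CPM (1.54 ± 0.16, adjusted p = 1.23e-09). In the list for ubiquitin and quality control, 20 of 25 genes rose and 3 fell (median 1.31). UBI4, the polyubiquitin gene, went from 65, 74.5 and 82.9 CPM to 1422, 1538 and 1326 CPM (4.27 ± 0.14). UBC4, a conjugating enzyme for abnormal proteins, went from 653, 613 and 652 CPM to 2507, 2640 and 2437 CPM (1.98). DDI1, a proteasome shuttle, went from 68.3, 71 and 73.5 CPM to 290, 300 and 273 CPM (2.02). SAN1, the nuclear quality control ligase, RSP5 and RKR1 were the 3 that fell, at -0.23, -0.20 and -0.58. With total-count scaling 1 of these 3 fell.

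Most genes of the endoplasmic reticulum and of autophagy rose as well. KAR2, the Hsp70 of the endoplasmic reticulum, went from 1130, 1102 and 1086 CPM to 6220, 5570 and 5607 CPM (log2 change 2.39 ± 0.14, adjusted p = 1.13e-14). ERO1, the oxidase that feeds disulfide formation, went from 186, 174 and 160 CPM to 1726, 1290 and 1273 CPM (3.04 ± 0.24). Of 20 genes in that list 16 rose and 1, the sensor kinase IRE1, fell at -0.39, for a median of 0.58. IRE1 no longer passed under total-count scaling. Among 22 autophagy genes 21 rose (median 0.80). ATG8, whose product coats the forming autophagosome, went from 10.1, 9.5 and 16.5 CPM to 69.3, 69 and 63.7 CPM (2.48 ± 0.14, adjusted p = 7.64e-15). The starter kinase gene ATG1 went from 27.9, 27.1 and 26.7 CPM to 108.2, 118.3 and 97.2 CPM (1.99). ATG10, at 0.43, was the 1 member that did not pass.

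**Figure D2:**
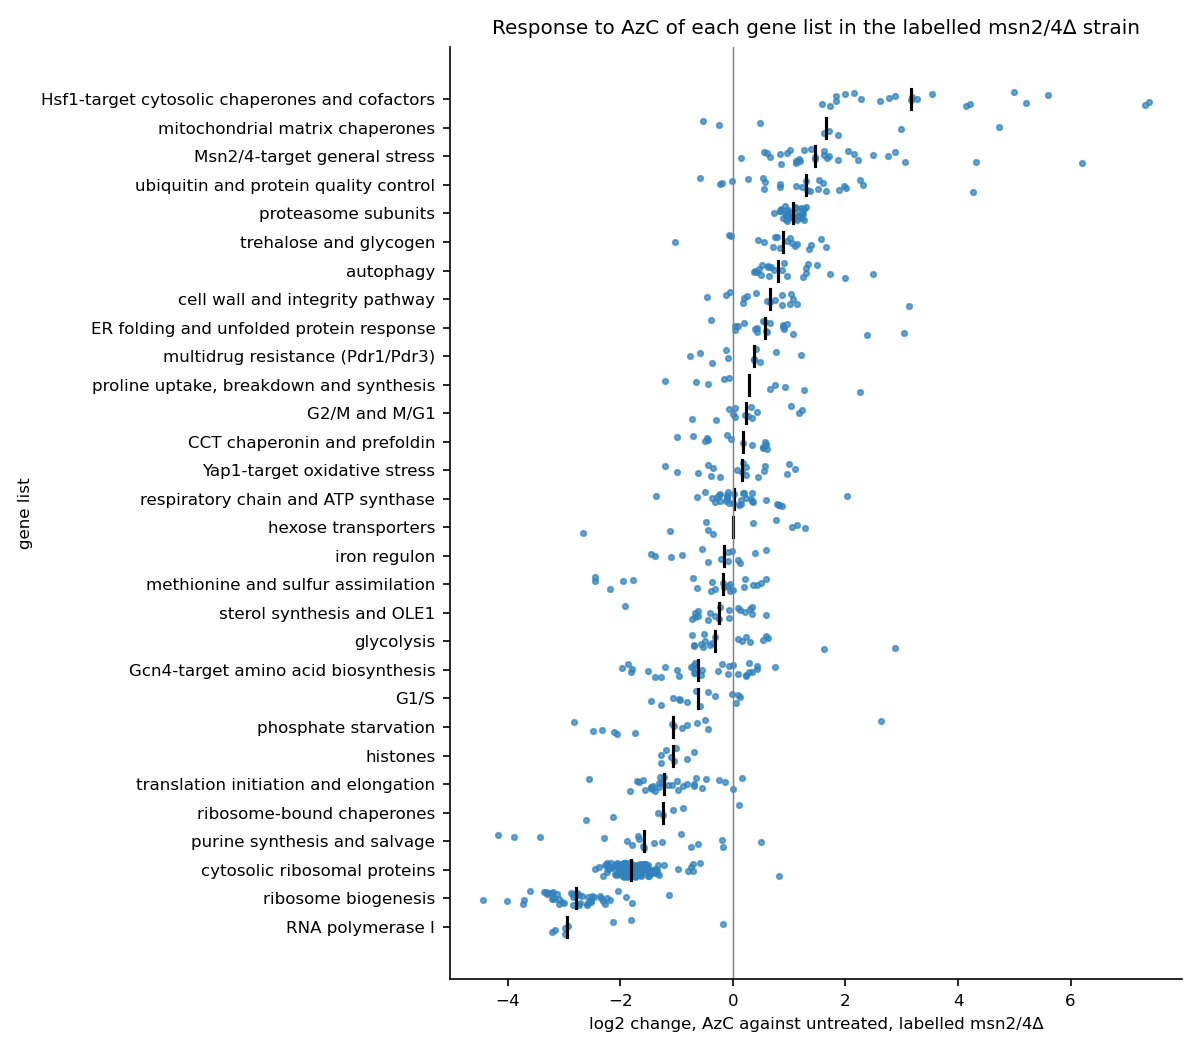
Log2 change after AzC in the strain labelled msn2/4∆ for every member of 30 gene lists, where each dot is 1 gene and each black bar the median of its list. Hsf1-target chaperones (median 3.16) and proteasome subunits (1.07) lie wholly above 0, and ribosome biogenesis genes (median -2.79) lie wholly below 0.

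Proline genes moved in both directions. PUT1, the first enzyme of proline breakdown, went from 7.77, 7.41 and 9.06 CPM to 35.6, 40.4 and 41 CPM (log2 change 2.27 ± 0.19, adjusted p = 3.04e-11). PUT2, the second enzyme of that route, went from 117.6, 128.6 and 137 CPM to 298, 310 and 311 CPM (1.26). PRO1, the first enzyme of proline synthesis, went the other way, from 162, 152 and 141 CPM to 64.3, 65.7 and 67.3 CPM (-1.21 ± 0.14, adjusted p = 1.02e-08). The groups did not overlap for any of the 3 genes. Over the list of 10 genes, 5 rose and 4 fell (median 0.29). PUT3, the activator of the PUT genes, was at 0.66, and of the later synthesis genes PRO2 was at -0.16 (adjusted p = 0.0141) while PRO3 did not pass (-0.07, adjusted p = 0.343). The permeases went both ways too, with PUT4, the high-affinity proline permease, at 0.93 (adjusted p = 0.0435, and 0.0993 to 0.135 without any one of 4 libraries), GAP1 at 0.76, AGP1 at -0.44 and GNP1 at -0.66. Under total-count scaling 2 of the list fell.

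Amino acid and purine genes were mostly lower, and sulfur genes were mixed. GCN4, the activator of amino acid biosynthesis, went from 1448, 1341 and 1242 CPM to 552, 503 and 594 CPM (log2 change -1.29 ± 0.09, adjusted p = 1.31e-12). Of 32 Gcn4-target genes 19 fell and 4 rose (median -0.62). HIS4, of histidine synthesis, went from 364, 396 and 369 CPM to 150, 151 and 166 CPM (-1.27), while LEU4, of leucine synthesis, went from 338, 405 and 427 CPM to 648, 665 and 649 CPM (0.74). Total-count scaling gave 16 fallen and 7 risen. Purine synthesis and salvage genes fell in 16 of 18 cases, with 1 risen and a median of -1.59. AAH1, adenine deaminase, went from 261, 271 and 212 CPM to 14.5, 10.8 and 15.6 CPM (-4.18 ± 0.46, adjusted p = 5.12e-09). HPT1, a salvage transferase, went from 398, 362 and 323 CPM to 25, 17.4 and 31.2 CPM (-3.88). In the methionine and sulfur list 8 of 22 fell, 3 rose and 11 did not pass, with a median of -0.17. Under total-count scaling 7 fell and 6 rose, and the median became 0.03. SAM2, which makes the methyl donor S-adenosylmethionine, went from 299, 316 and 274 CPM to 81.5, 67.3 and 80.5 CPM (-1.96).

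Genes for making ribosomes fell furthest. All 48 ribosome biogenesis genes fell, each by at least 2-fold, with a median of -2.79. DBP2, an RNA helicase, went from 670, 806 and 651 CPM to 44.4, 21.2 and 32.5 CPM (log2 change -4.43 ± 0.82, adjusted p = 2.37e-05). NSR1, a nucleolar protein of rRNA processing, went from 829, 1019 and 795 CPM to 77.6, 38.6 and 47.1 CPM (-4.01 ± 0.64, adjusted p = 3.03e-06). UTP20, of the small subunit processome, went from 279, 253 and 222 CPM to 38.5, 33.1 and 41.6 CPM (-2.73 ± 0.16, adjusted p = 1.03e-14). The second treated library was lowest for all 3 genes, and no treated library reached an untreated one. Of 8 RNA polymerase I genes 7 fell (median -2.95), among them RPA190, the largest subunit, from 601, 547 and 490 CPM to 75.7, 57.2 and 74.2 CPM (-2.98). RPA14 at -0.17 did not pass.

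Ribosomal protein and translation genes fell less far. Of 137 cytosolic ribosomal protein genes all but 2 fell, 1 rose and 1 did not pass (median -1.81). RPS28B went from 572, 594 and 528 CPM to 104.4, 119.1 and 136.1 CPM (log2 change -2.24 ± 0.14, adjusted p = 7.22e-14). The exception was RPL15B, 1 of a pair of near-identical copies, which had a mean of 60.0 ± 2.17 CPM (SD) before and 106.2 ± 6.33 CPM after AzC, with no overlap between groups (0.82 ± 0.06, adjusted p = 7.81e-13). Most of these genes come as near-identical pairs, so the split of reads between copies is uncertain. Translation initiation and elongation factors fell in 27 of 31 cases with none risen (median -1.22, 1 risen under total-count scaling), and EFT2, elongation factor 2, went from 1060, 1232 and 1110 CPM to 360, 310 and 380 CPM (-1.70). YEF3, the fungal elongation factor 3, fell by 2.55 on the log2 scale.

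Cell cycle genes, histones and nutrient uptake genes also moved. All 8 core histone genes fell (median -1.06), such as HTA1 from 675, 661 and 658 CPM to 266, 234 and 325 CPM (log2 change -1.27). G1/S genes fell in 9 of 14 cases with none risen (median -0.62, with 2 risen and 8 fallen under total-count scaling), and CLN2, a G1 cyclin, went from 203, 190 and 178 CPM to 75.3, 69.8 and 91 CPM (-1.27). SIC1, an inhibitor of S-phase kinase, went up, from 94.7, 98.1 and 98.3 CPM to 230, 234 and 217 CPM (1.23 ± 0.06, adjusted p = 1.33e-16). In the G2/M and M/G1 list 8 of 14 rose and 1 fell (median 0.24). Phosphate starvation genes fell in 13 of 14 cases (median -1.06). PHO5, the secreted acid phosphatase, went from 689, 626 and 522 CPM to 156, 130.2 and 157 CPM (-2.05), and PHM8 was the 1 that rose, from 13.9, 15.1 and 21.5 CPM to 110.2, 101.4 and 101.9 CPM (2.64). PHO5 was already higher in the untreated mutant than in untreated WT, where it was at 291, 336 and 257 CPM (1.05, adjusted p = 5.3e-06).

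Cell wall, lipid, sugar transport and redox lists were mixed. In the cell wall integrity list 10 of 17 rose and 1, FKS1, fell (median 0.67), against 12 risen and 0 fallen under total-count scaling. PRM5, a reporter gene of that pathway, went from 61.3, 67.8 and 58.1 CPM to 554, 626 and 467 CPM (log2 change 3.14 ± 0.17, adjusted p = 5.1e-15). Its kinase gene SLT2 went from 105.8, 97.6 and 106.2 CPM to 220, 240 and 219 CPM (1.13). OLE1, the fatty acid desaturase, went from 483, 603 and 506 CPM to 175, 103.6 and 144 CPM (-1.91), in a sterol list with 5 risen and 11 fallen of 20 (7 and 7 under total-count scaling). HXT2, a high-affinity glucose transporter, went from 743, 805 and 643 CPM to 125.6, 97.2 and 123.1 CPM (-2.66), in a list with 3 risen and 3 fallen of 10 (3 and 2 under total-count scaling). Yap1-target oxidative stress genes had 8 risen and 7 fallen of 18 (10 and 4 under total-count scaling), and Pdr1 and Pdr3 targets 5 risen and 1 fallen of 11. Glycolysis had 5 risen and 10 fallen of 19 (8 and 8 under total-count scaling), and respiratory chain genes 10 risen and 5 fallen of 33 (16 and 3 under that scaling). In the iron regulon 2 rose and 5 fell of 14.

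General stress genes rose in the mutant as a list, though its label is that of a strain without Msn2 and Msn4. Of 30 Msn2/4-target genes 28 rose, 22 of them by at least 2-fold, with a median of 1.46 against 0.05 for all genes. HSP12, a membrane-protecting small heat shock protein, went from 2.13, 0.95 and 0.968 CPM to 74, 169 and 64.9 CPM (log2 change 6.20 ± 0.69, adjusted p = 6.88e-09). HSP26, a small heat shock protein, went from 8, 8.08 and 9.5 CPM to 130.4, 167 and 216 CPM (4.33 ± 0.34). PNC1, nicotinamidase, went from 49.7, 48.7 and 65.1 CPM to 353, 377 and 377 CPM (2.76). The treated libraries lay above the untreated ones for all 3. At the other end CTT1, cytosolic catalase, went from 13.5, 14.6 and 13.1 CPM to 27.1, 26 and 21.5 CPM (0.86, adjusted p = 0.0175, and 0.0509 or 0.05 without treated library 1 or 2). DDR2 stood at 0.838, 1.33 and 1.14 CPM before and 2.23, 3.04 and 1.86 CPM after AzC (1.12 ± 0.67, adjusted p = 0.142). These DDR2 groups do not overlap, and DESeq2 gave an adjusted p of 0.0178. RTN2 was at 0.14 (adjusted p = 0.683).

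The WT libraries show how the response of a strain with both genes compares. After AzC, WT had 2090 genes (34.2%) higher and 1997 (32.7%) lower, and with the 2-fold minimum 617 (10.1%) higher and 679 (11.1%) lower. Of the 617 genes, 559 (90.6%) also rose in the mutant and 473 (76.7%) passed 2-fold there, where they made 72.2% of the mutant's own list. Of the 679, 668 (98.4%) fell in the mutant and 645 (95%) passed 2-fold, which made 86.1% of its list. No gene of either WT list passed in the opposite direction. The lists rest on separate control libraries.

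Tested gene by gene, the response of the strain labelled msn2/4∆ was lower than that of WT in 64 genes (1.05%) and higher in 32 (0.524%). With a difference of at least 2-fold there were 30 genes lower (0.491%) and 2 higher (0.0327%). Of the 30, 28 had risen in WT, while in the mutant 20 rose, 4 fell and 6 did not pass. Of these 30 genes 9 belong to the trehalose and glycogen list and 7 to the Msn2/4-target list, with 15 in neither. Without WT AzC library 1, the lowest of its group in most of these genes, 41 genes were lower. Leaving out 1 of the other libraries gave as few as 22. With a replicate block 43 genes were lower and 6 higher, or 48 and 4 in the compared groups alone. Among the Hsf1-target chaperones and the proteasome subunits no member passed for a difference between the strains (median differences 0.09 and 0.15). DESeq2 gave 2 proteasome subunits higher in the mutant. No ribosome biogenesis, RNA polymerase I or ribosomal protein gene passed in the main fit. All 48 ribosome biogenesis and all 8 polymerase differences were negative (medians -0.62 and -0.57, against 0.02 for all genes). The 137 ribosomal protein genes had a median difference of -0.40.

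**Figure D3:**
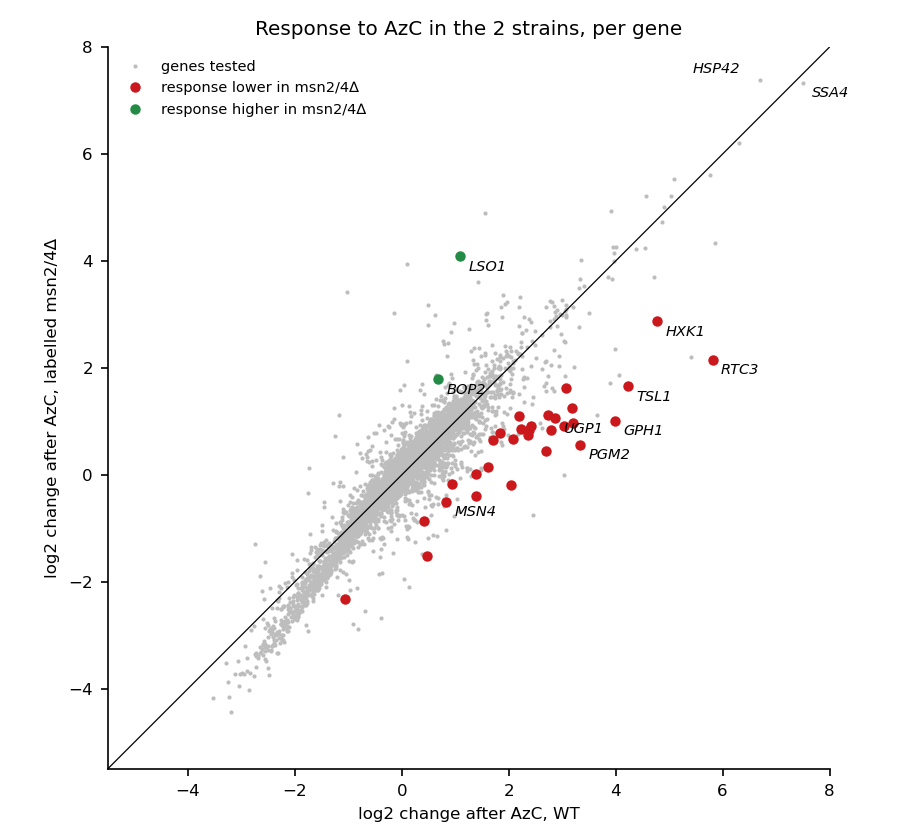
Log2 change after AzC, with WT on the horizontal axis and the strain labelled msn2/4∆ on the vertical axis, 1 dot per gene, with a diagonal of equal change, red for the 30 genes with a lower response in the mutant and green for the 2 with a higher one. Most genes lie along the diagonal, and 28 of the 30 red genes rose in WT.

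RTC3 had the largest such gap. This gene of the Msn2/4 list went from 3.12, 2.09 and 2.99 CPM to 13, 12.6 and 11.1 CPM in the mutant (log2 change 2.15) and from 12.3, 9.29 and 13.7 CPM to 497, 711 and 763 CPM in WT (5.81). The difference of the responses was -3.66 ± 0.40 (adjusted p = 4.44e-06). Treated mutant libraries thus only reached the level of untreated WT. RTC3 was also lower before treatment (-2.08, adjusted p = 5.66e-05).

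Stored carbohydrate genes made up 9 of the 30 genes with a lower response of at least 2-fold. Yeast makes trehalose through the TPS1, TPS2, TPS3 and TSL1 complex and glycogen through GSY1 and GSY2, both from UDP-glucose supplied by PGM2 and UGP1. Of 18 trehalose and glycogen genes 14 rose in the mutant (median 0.90) and 15 in WT (median 2.32), and 11 responded less in the mutant (median difference -1.19 against 0.02 for all genes). PGM2, phosphoglucomutase, went from 33.5, 31.2 and 33.6 CPM to 42.3, 53.1 and 49.9 CPM in the mutant and from 44.4, 42.9 and 51.9 CPM to 291, 540 and 573 CPM in WT, a difference of responses of -2.77 ± 0.34 (adjusted p = 1.47e-05). TSL1, the large subunit of trehalose synthase, went from 21.4, 23 and 26.7 CPM to 77, 73.5 and 73.9 CPM in the mutant and from 48, 57.2 and 72.4 CPM to 776, 1273 and 1316 CPM in WT (-2.58 ± 0.36, adjusted p = 0.000101). In both genes every treated WT library lay above every treated mutant library.

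Enzymes of synthesis and of breakdown were both in this group. GPH1, glycogen phosphorylase, went from 3.88, 3.04 and 3.87 CPM to 7.6, 7.25 and 7.05 CPM in the mutant and from 15.4, 17.6 and 28.8 CPM to 185, 373 and 430 CPM in WT (difference of responses -2.97 ± 0.50, adjusted p = 0.000787). GSY2, glycogen synthase, differed by -2.26 (adjusted p = 0.000233) and its own change of 0.44 in the mutant did not pass (adjusted p = 0.117). UGP1 went from 278, 291 and 317 CPM to 564, 669 and 614 CPM in the mutant and from 303, 337 and 423 CPM to 1980, 2874 and 2874 CPM in WT (-1.80 ± 0.26, adjusted p = 0.000109). Across these genes the mutant moved up in smaller steps than WT. Other members that responded less by at least 2-fold were GSY1 at -2.24, GDB1, the debranching enzyme, at -1.61, TPS2 at -1.54 and NTH1, neutral trehalase, at -1.10. TPS1 differed by -0.93 (adjusted p = 0.0486), which passed in few other settings and ranged from 0.0981 to 0.151 in the 9 of 12 fits without 1 library in which it did not pass.

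**Figure D4:**
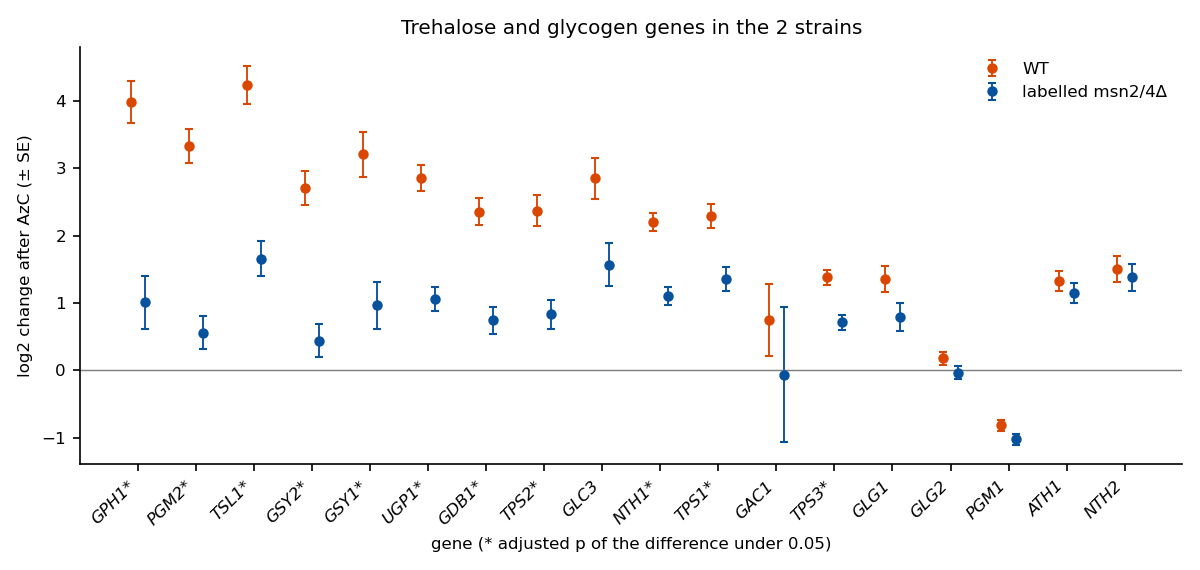
Log2 change after AzC with its standard error for 18 trehalose and glycogen genes in the strain labelled msn2/4∆ and in WT, where a star marks an adjusted p below 0.05 for the difference between strains. GPH1, PGM2 and TSL1 show the widest gaps, with WT higher, while PGM1 fell in both strains.

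Other genes of the general stress list differed in part. Of its 30 members all rose in WT (median 2.67), and 8 responded less in the mutant with none responding more (median difference -0.73). That count was 4 to 5 in 9 fits without 1 library, 13 without WT AzC library 1 and 13 by DESeq2, and 14 with a replicate block in all libraries or 16 in the compared groups alone. HXK1, a hexokinase of the list, went from 3.88, 6.94 and 8.8 CPM to 47.2, 46.6 and 49.1 CPM in the mutant and from 71.3, 94.5 and 186 CPM to 2337, 3666 and 3704 CPM in WT (-1.90 ± 0.48, adjusted p = 0.0397, lost without any one of 9 libraries). HSP26 reached 457, 970 and 1203 CPM in treated WT, and its difference of -1.53 ± 0.44 missed the threshold (adjusted p = 0.077). It passed with a replicate block (adjusted p = 0.00412), by DESeq2 (0.0148) and without WT AzC library 1 (0.00924). For HSP12 the difference of responses was -0.11, from a lower start, since untreated WT held 17.1, 12.4 and 21.8 CPM (untreated difference -3.62, adjusted p = 0.00334). DDR2, at 42.4, 93.1 and 89.7 CPM in treated WT, differed by -2.52 (adjusted p = 0.159, and 0.000755 by DESeq2). PNC1 differed by -0.55 (adjusted p = 0.304).

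Before treatment the strains were close. Untreated, 16 genes (0.262%) were higher and 48 (0.786%) lower in the mutant, or 7 (0.115%) and 26 (0.426%) with the 2-fold minimum. Of the Msn2/4-target list 8 were lower and none higher (median -0.54), and of the trehalose and glycogen list 3 (median -0.39). Among the 30 genes with a lower AzC response, 10 were already at least 2-fold lower in the untreated mutant.

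Only 2 genes responded more in the mutant by at least 2-fold. LSO1, a small gene whose transcript is known to respond to iron deprivation, went from 0.99, 0.95 and 1.94 CPM to 18.7, 22.9 and 24.6 CPM in the mutant and from 18.5, 9.5 and 6.74 CPM to 22.9, 28.6 and 18.9 CPM in WT (difference of responses 2.99 ± 0.45, adjusted p = 0.000158). Treated levels overlapped between strains, and the difference lay in the untreated libraries (-3.08). BOP2 went from 15.2, 12.8 and 10.9 CPM to 42.1, 58.5 and 34.3 CPM in the mutant and from 13.8, 12 and 10.7 CPM to 19, 20.5 and 18.6 CPM in WT (1.10 ± 0.25, adjusted p = 0.017, and 0.0536 to 0.085 without any one of 3 libraries).

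The choice of reference strain mattered. Set against HSF1+ in place of WT, the AzC response of the mutant was lower in 1027 genes (16.8%) and higher in 1044 (17.1%). The treated HSF1+ libraries differed in depth, at 55245832, 99558095 and 13999625 reads. The comparison with HSF1+ was fitted in the main setting alone, without thinning of deep libraries. Of the 30 genes above, 12 were also lower against HSF1+ at the adjusted p alone, without the 2-fold minimum. PGM2 stayed lower (-1.49, adjusted p = 0.00114), as did RTC3 (-1.09, adjusted p = 0.0269) and UGP1 (-0.92, adjusted p = 0.00616). TSL1 at -0.18 (adjusted p = 0.739) and GPH1 at -0.91 (adjusted p = 0.156) did not pass. Against HSF1+ the trehalose and glycogen list had 4 lower and none higher (median -0.30), and the Msn2/4-target list 4 lower and 6 higher (median 0.36). No proteasome or ribosome biogenesis gene passed against WT (median differences 0.15 and -0.62). Against HSF1+ all 33 proteasome genes were higher and all 48 ribosome biogenesis genes lower. HSF1+ carries added copies of chaperone genes, and the part of the cassette in this was not tested.

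Heat shock in the same mutant gave a different balance. AzC libraries were higher than heat shock libraries in 1714 genes (28.1%) and lower in 1810 (29.6%). The treatments differ in length as well as kind, at 1 h and 15 min. HSP42 reached 3933, 5289 and 5038 CPM with heat, which overlaps the AzC libraries. SSA4 went higher with heat, to 21190, 25950 and 23860 CPM (log2 difference of AzC to heat -1.39, adjusted p = 1.33e-07), and CUR1 lower, to 249, 279 and 268 CPM (0.83, adjusted p = 0.000299). Of the 21 Hsf1 targets 6 were higher and 9 lower with AzC.

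General stress genes and growth genes were on opposite sides of that comparison. Of 30 Msn2/4 targets 18 were lower with AzC than with heat and none higher (median -0.82). HOR7, a gene known to respond to hyperosmolarity, reached 650, 676 and 727 CPM with heat. HXT5, a hexose transporter of slow growth, was at 128.8, 126.9 and 133.2 CPM with heat and at 4.26, 7.56 and 8.83 CPM with AzC (-4.25). Ribosomal protein genes were higher with AzC in all but 3 of 137 cases (median 1.94) and ribosome biogenesis genes in 34 of 48 (median 1.18). RPL9A, which AzC took from 2135, 1900 and 1770 CPM to 386, 310 and 365 CPM, was at 34.7, 24.8 and 72.3 CPM with heat (3.01). HRP1, a factor of mRNA 3' end formation, was at 475, 404 and 391 CPM with AzC, close to its untreated 493, 439 and 447 CPM, and at 39.1, 33.6 and 45 CPM with heat (3.43).

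The motifs marked in the promoters of HSP42, TSL1 and the proteasome genes were counted genome-wide. Over 6006 promoters, from 250 bases before the start codon to 50 after it, 21.6% held an STRE, 0.783% a heat shock element and 1.18% a PACE. Of the genes that rose by at least 2-fold in the mutant and have a promoter in the table, 215 of 597 (36%) held an STRE, and of those that fell 84 of 703 (11.9%). Among the genes with a lower response than WT, 16 of 29 (55.2%) held an STRE, and 21 of 30 (70%) did in the Msn2/4-target list. Of the 30 genes with a lower response 28 had risen in WT, so all promoters are not a matched background for the 55.2%. Among genes that rose at least 2-fold in WT, 188 held 1 STRE, 61 held 2 or more, and 5 an STRE and a heat shock element. Another 12 held that element without an STRE, and 286 held neither. A PACE was found in 27 of 33 proteasome promoters (81.8%) and a heat shock element of this strict form in 5 of 21 Hsf1-target promoters (23.8%). GPH1, GSY1, UGP1 and TPS2 held none of these motifs in the window. A match describes the letters and says nothing on binding.

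Grouped by these motifs alone, promoters with 2 or more STREs and no heat shock element (167 genes) had a median log2 change of 0.56 in the mutant and 0.69 in WT, and 26.9% and 36.5% of them rose at least 2-fold. With 1 STRE (1077 genes) the medians were 0.24 and 0.25, and with neither motif (4436 genes) -0.01 and -0.06. Promoters with a heat shock element and no STRE (36 genes) had medians of 0.36 and 0.56, and 36.1% and 33.3% of them rose at least 2-fold. The 11 genes with both motifs had medians of 0.58 and 0.67. A lower response in the mutant than in WT was called at the adjusted p alone in 7.78% of the genes with 2 or more STREs, in 2.6% with 1 and in 0.473% with neither motif. In WT 65.9%, 51% and 29.4% of these classes rose at the adjusted p, so the classes also differ in how many genes rose at all. Among promoters without a heat shock element the medians were thus in the same order in both strains, and the share that responded less was larger with more STREs. With the heat shock element classes included, the order differed between the strains.

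**Figure D5:**
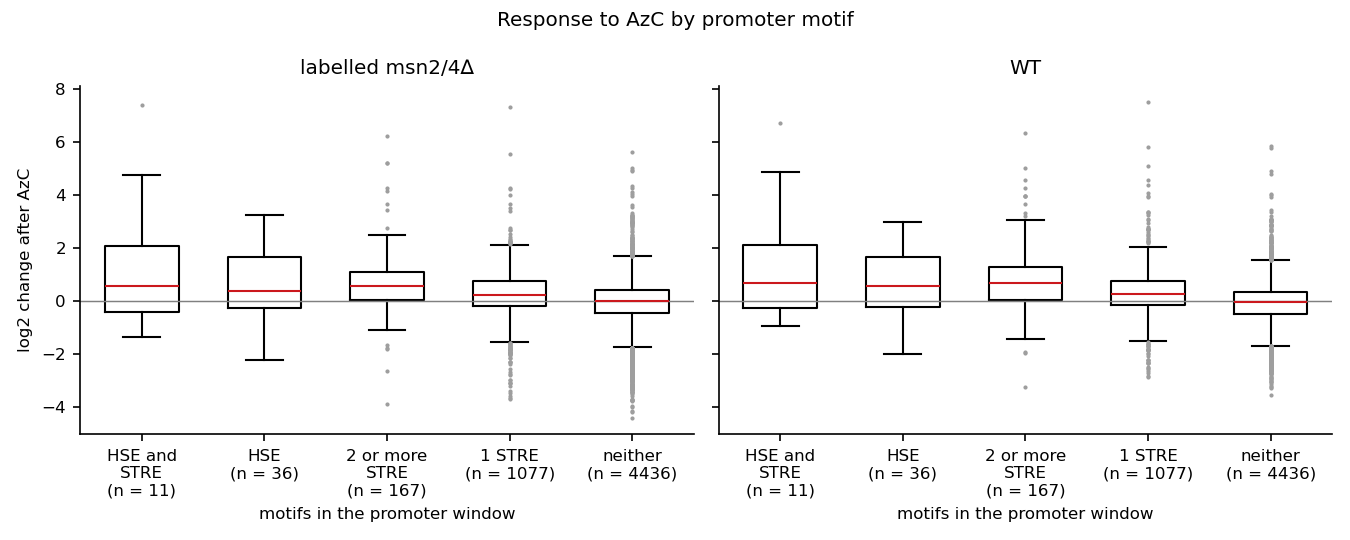
Box plots of the log2 change after AzC of genes grouped by promoter motifs, in the strain labelled msn2/4∆ and in WT, with the number of genes under each group. Genes with 2 or more STREs have a median of 0.56 in the mutant and 0.69 in WT, and the 4436 genes with neither motif have medians near 0.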

How the data were processed

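The deposited table gives unnormalized counts of reads, as whole numbers, for 7126 genes and 36 libraries. Per the labels' protocols, RNA came from a RiboPure kit, libraries from a TruSeq poly-A selection, and reads from a NovaSeq6000. Per the submitters' processing notes, Trim Galore, FastQC, STAR and Salmon were used with build R64. What counted the reads, on which strand and with which annotation is not given in the sources used. How reads shared by similar genes were assigned is not given either, which bears on any gene with a close copy.

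Counts were tested in R 4.3.3 with edgeR 4.0.16 (limma 3.58.1). After filterByExpr 6109 genes remained. With TMM factors, a quasi-likelihood model with 12 group means took in all 36 libraries. P-values were adjusted by Benjamini-Hochberg over all genes tested, and calls needed an adjusted p below 0.05, with or without a 2-fold change as stated. CPM use TMM factors. Errors of log2 changes are standard errors worked back from each log2 change and its F statistic. The groups hold 3 libraries each, and the spread was estimated over all 36 libraries. Responses were compared between strains as the difference of AzC minus untreated. The model was also run on counts simulated from its own fitted means and dispersions, with set changes added. Such counts cannot test how well it describes the real spread. Alternatives were RLE factors, total-count scaling, no filter, DESeq2 1.42.0, a replicate block, the compared groups alone, thinned deep libraries, protein-coding genes alone, HSF1+ as reference and leaving out each library.

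Same-numbered AzC and untreated mutant libraries had correlations of 0.163, -0.082 and 0.127 in their deviations from group means, so pairing by number was unclear there. All such correlations were positive for AzC and untreated WT (0.268, 0.163 and 0.38) and for AzC and heat in the mutant (0.333, 0.271 and 0.113). They were also positive for the untreated strains (0.307, 0.19 and 0.229) and for AzC in the mutant and WT (0.373, 0.244 and 0.169). Pairing itself was not tested, and the main fit holds none. For the difference of responses, counts with a replicate block therefore stand beside those of the main fit.

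The comparison, the gene lists and the tests were chosen with earlier results of these data known. Named genes are a selection from a fixed set (label, chaperone, stress and proline genes), the 15 largest and 15 smallest changes over a mean of 10 CPM and without overlap of groups (10 and 10 for differences of responses without that condition, 5 and 5 in other comparisons), and, per list, the 3 smallest p-values and the 1 member farthest from the median. Other list members given as examples were chosen after their values were seen. Positions and promoters were found for 6006 genes, and the other 1120 have none.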

Additional observations from a re-analysis of the deposited data

Results flagged for a closer look

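These 32 genes are listed because the AzC response differed between the strain labelled msn2/4∆ and WT in the test of the difference itself (edgeR, adjusted p below 0.05 and at least 2-fold). Values are log2 differences of responses, mutant minus WT.

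Among trehalose and glycogen genes the differences were -2.97 for GPH1, -2.77 for PGM2, -2.58 for TSL1, -2.26 for GSY2, -2.24 for GSY1, -1.80 for UGP1, -1.61 for GDB1, -1.54 for TPS2 and -1.10 for NTH1. Other genes of the Msn2/4-target list were RTC3 at -3.66, DCS2 at -1.96, HXK1 at -1.90, RTN2 at -1.48, GAD1 at -1.44 and HOR7 at -1.42.

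Of metabolic and redox genes outside those lists, STF2, a stabilising factor of the ATP synthase inhibitor, was at -2.12, EMI2, a hexokinase-like gene, at -1.62, PIC2, a mitochondrial carrier, at -1.50, and GCY1, an aldo-keto reductase, at -1.37. The thiol peroxidase genes GPX1 and PRX1 were both at -1.06, although each rose in both strains. COA2, an assembly factor of cytochrome oxidase, fell in both strains and further in the mutant (-1.24). Its call was lost in 9 of the 12 fits without 1 library.

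MSN4 itself was at -1.34, since it rose in WT and fell in the mutant. POM33, a nuclear pore protein gene, was at -1.27 with log2 changes of -0.86 in the mutant and 0.41 in WT. AIM17 was at -1.94, PNS1 at -1.79, YNR034W-A at -2.24, YMR196W at -1.36 and YKL151C at -1.11. The small nucleolar RNA snR35 was at -1.99 in poly-A-selected libraries, and that call was lost in 8 fits without 1 library. The genes that responded more in the mutant were LSO1 at 2.99 and BOP2 at 1.10.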

How the results depend on the processing

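The counts of AzC against untreated in the mutant stayed within 1.5 times of the main 1404 under every setting but the call rule, which without a fold minimum gave 4090 (2197 higher, 1893 lower). A replicate block gave 1418, or 1355 with the compared groups alone. Total-count scaling moved the higher share from 46.7% to 59.4%. Leaving out 1 library gave 1335 to 1465.

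Of the difference of responses (32 genes, 2 higher and 30 lower), a replicate block gave 49 (6 higher), or 52 with the compared groups alone (4 higher, 48 lower). The HSF1+ reference gave 585 (467 of them lower), and no fold minimum 96 (32 and 64). Total-count scaling and DESeq2 each gave 4 higher. Without 1 library the total was 24 (without WT AzC library 3) to 45 (without WT AzC library 1), with 1 to 4 higher and 22 to 41 lower. Against HSF1+ the sign turned for TPS1 (0.0335), HXK1 (0.57), NTH1 (0.014), GAD1 (0.0426) and HOR7 (0.0905). The cause was not tested. HSP26 passed with a replicate block (-1.53, adjusted p = 0.00412) and by DESeq2 (adjusted p = 0.0148).

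Untreated, the compared groups alone gave 4 higher against 7. A replicate block added calls for TPS1 (-0.50) and HSP42 (-0.78), and changed no call printed for that comparison. Over single genes and lists, 6538 alternative values kept their direction and call or count, 399 moved or changed a call (224 moved, 42 gained a call and the others lost one), and 5 reversed.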
